A study of Homo sapiens with 6 samples.

Results

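A set of 10 long non-coding RNA (lncRNA) genes known from the nucleus or from colorectal cancer was followed through a survey of RNA recovered with NAT10. This enzyme writes N4-acetylcytidine (ac4C) on RNA. The genes were chosen by symbol (MALAT1, NEAT1, KCNQ1OT1, TUG1, PVT1, CCAT1, CRNDE, H19, UCA1 and MIR17HG), and 9 of the 10 were matched to a row among the 58302 genes of the expression table. CCAT1 was not analysed here. Another 2 rows that carry the symbols of MALAT1 and UCA1 as short conserved elements were at 0 in every library and were not used.

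lncRNAs act without being translated. MALAT1 is an abundant RNA of nuclear speckles, NEAT1 is the scaffold of the nuclear bodies called paraspeckles, and KCNQ1OT1 is an imprinted nuclear RNA made antisense to KCNQ1 that silences neighbouring genes. TUG1 is found in both nucleus and cytoplasm, PVT1 lies beside MYC, and CRNDE and UCA1 were named for their raised levels in colorectal and urothelial tumours. H19 and MIR17HG are also host transcripts, since miR-675 is cut from H19 and the miR-17 cluster from MIR17HG.

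The study held 6 libraries from 2 human colorectal cancer cell lines, SW480 and DLD-1, both labelled wild type and untreated. Each line gave 1 library of input RNA (Input), 1 of RNA recovered with a NAT10 antibody (RIP) and 1 of RNA recovered with an ac4C antibody (acRIP). So no group had a replicate and no difference could be tested. None of the libraries was a recovery with a control antibody (IgG). RIP over Input therefore cannot separate binding by NAT10 from unspecific recovery. Levels are given as FPKM, fragments per kilobase of transcript, scaled to sequencing depth, with the whole reads behind them and 95% exact counting intervals, which cover counting error only. The reads are the smallest whole numbers that fit the FPKM values and are therefore lower bounds. They came to at least 28093353 and 23730687 for the 2 RIP libraries, and to 13683039 and 12622785 for the Inputs. A second deposited table, for acRIP, gave another set of Input values for each line, whose depth is unknown. Whether these values come from the same Input libraries is not stated, so they are not taken as independent of the first set. In such bulk RNA, fewer cells with a transcript and less transcript per cell cannot be told apart.

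The RIP and Input libraries of one label did not match each other. Across 16196 protein-coding genes, log2 levels of the SW480-labelled RIP library correlated more closely with the DLD-1-labelled Input (Pearson's r = 0.944) than with the SW480-labelled Input (0.871), and the DLD-1-labelled RIP library more closely with the SW480-labelled Input (0.951) than with its own (0.856). VIM, a mesenchymal gene that SW480 cells are known to express, was at 127.7 FPKM in the SW480-labelled RIP library and 11.1 in the DLD-1-labelled Input, against 0.804 in the DLD-1-labelled RIP library and 0.0770 in the SW480-labelled Input. The acRIP-table Inputs had the same order, with VIM at 0.0881 under the label SW480 and 51.2 under DLD-1. All 4 epithelial marker genes had reads in every RIP and Input library, and summed fibroblast markers reached at most 0.381 FPKM and summed immune markers at most 0.364. Every RIP over Input value is therefore given for the Input of the same label and for that of the other label, called the opposite Input, and libraries are named by their labels only. Paired values are in the order SW480, DLD-1 unless stated, and a ratio under a label is that of the RIP library with that label.

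In every RIP and Input library MALAT1 had the highest level of the 9 lncRNAs and NEAT1 the next highest. From there the order depended on the library. TUG1 came next in both RIP libraries and in the SW480-labelled Input, and PVT1 in the DLD-1-labelled Input. KCNQ1OT1 stood last in 3 of these libraries, and H19 stood last in the DLD-1-labelled Input. Neighbours whose counting intervals overlapped were UCA1 and PVT1, CRNDE and MIR17HG, and MIR17HG and H19 in the SW480-labelled Input, UCA1 and H19 in the DLD-1-labelled Input, and CRNDE and MIR17HG in the DLD-1-labelled RIP library.

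**Figure D1:**
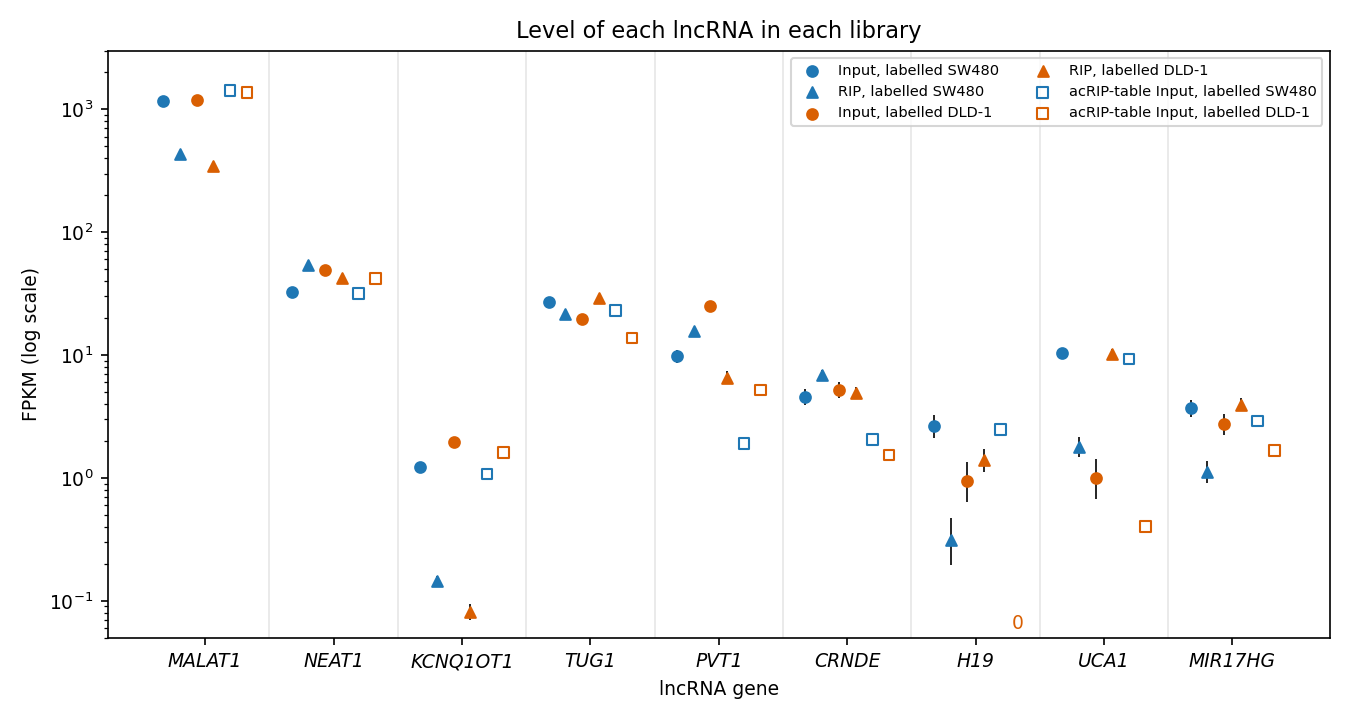
Level of each of the 9 lncRNA genes (x axis) in FPKM on a log scale (y axis), for the 2 Inputs (circles), the 2 NAT10 RIP libraries (triangles) and the 2 Inputs of the acRIP table (open squares), with blue for the label SW480 and orange for DLD-1. Vertical lines are 95% counting intervals, shown where reads were recovered, and the 0 marks H19, listed at 0 in the DLD-1-labelled Input of the acRIP table. MALAT1 lies above all other genes, its RIP levels lie below its Input levels, and KCNQ1OT1 and H19 reach the lowest levels.

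MALAT1 was lower in NAT10 RIP than in Input under both labels. This gene (ENSG00000251562, GRCh38 chr11:65497738-65506516) was at 1174 FPKM in the SW480-labelled Input (149451 reads) and 1200 in the DLD-1-labelled Input (141080 reads), and at 437 (112737 reads) and 345 (75733 reads) in the RIP libraries of the same labels. Both RIP values lay below both Inputs. MALAT1 took 1.09% and 1.12% of the Input reads, and 0.401% and 0.319% of the RIP reads. The RIP level was 0.372 times the Input (0.369 to 0.375) under the label SW480 and 0.288 times (0.285 to 0.290) under DLD-1, or -1.42 and -1.79 as log2 ratios with 1 FPKM added to both values, the scale used for all log2 ratios in this text. Over the opposite Input the log2 ratios were -1.46 and -1.76. The Inputs themselves differed little, with 0.978 times as much MALAT1 in SW480 as in DLD-1 (0.971 to 0.985), while the SW480-labelled RIP library held 1.27 times that labelled DLD-1 (1.25 to 1.28).

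NEAT1, which ends 52197 bases before MALAT1 starts, was within 2-fold of Input in both RIP libraries. NEAT1 (ENSG00000245532, GRCh38 chr11:65422798-65445540) was at 32.6 FPKM (10824 reads) and 49.4 (15168 reads) in the SW480 and DLD-1 Inputs, and at 54.4 (36646 reads) and 42.0 (24089 reads) in the RIP libraries. The RIP library was above its Input under one label and below it under the other. The RIP level was 1.67 times the Input (1.63 to 1.71) under SW480 and 0.851 times (0.834 to 0.869) under DLD-1, with log2 ratios of 0.72 and -0.23. Both ratios over the opposite Input were above 0, at 0.14 and 0.36. MALAT1 was 36.1 times NEAT1 per length in the SW480-labelled Input (35.4 to 36.8) and 24.3 times in that labelled DLD-1 (23.9 to 24.7). In the RIP libraries the same quotient was 8.03 (7.94 to 8.13) and 8.21 (8.09 to 8.33).

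KCNQ1OT1 had the lowest RIP over Input of the 9 lncRNAs on a scale without added FPKM, although under SW480 its interval overlapped that of H19. Its row (ENSG00000269821, GRCh38 chr11:2608328-2699994) was at 1.23 FPKM (1647 reads) and 1.95 (2409 reads) in the SW480 and DLD-1 Inputs, and at 0.145 (395 reads) and 0.0810 (187 reads) in the RIP libraries. Both RIP values were below both Inputs. The RIP level was 8.45-fold lower than the Input (7.57 to 9.46) under SW480 and 24.0-fold lower (20.7 to 28.0) under DLD-1, and 13.4-fold and 15.2-fold lower over the opposite Input. With 1 FPKM added, which compresses changes of a gene this low, the log2 ratios were -0.96 and -1.45, and -1.36 and -1.04 over the opposite Input. The row spans introns of KCNQ1, and since the strand setting of the counting is not given in the sources used here, reads of unspliced KCNQ1 and of KCNQ1OT1 cannot be told apart. KCNQ1 itself was at 14.0 and 5.57 FPKM in the SW480 and DLD-1 Inputs and at 5.40 and 10.0 in the RIP libraries, so its RIP value was below the Input under SW480 and above it under DLD-1, with log2 ratios of -1.23 and 0.74 (-0.04 and -0.45 over the opposite Input).

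TUG1 was within 2-fold of Input in both RIP libraries. TUG1 (ENSG00000253352, GRCh38 chr22:30969265-30979395) was at 27.1 FPKM (2247 reads) and 19.6 (1502 reads) in the SW480 and DLD-1 Inputs, and at 21.5 (3606 reads) and 29.3 (4191 reads) in the RIP libraries. The higher Input and the higher RIP library carried different labels. The log2 ratios of RIP over Input were -0.32 and 0.56, and 0.12 and 0.11 over the opposite Input.

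PVT1, known from tumours, was above its Input in RIP under one label and below it under the other. PVT1 (ENSG00000249859, GRCh38 chr8:127794524-128101256) was at 9.74 FPKM (242 reads) and 25.2 (579 reads) in the SW480 and DLD-1 Inputs, and at 15.8 (795 reads) and 6.54 (280 reads) in the RIP libraries. The DLD-1-labelled Input was the highest of the 4 and the RIP library of that label the lowest. The RIP level was 1.62 times the Input (1.40 to 1.88) under SW480 and 0.259 times (0.224 to 0.299) under DLD-1, with log2 ratios of 0.64 and -1.80. The log2 ratios over the opposite Input were -0.64 and -0.51. PVT1 also differed between the 2 tables by the largest factor of the members with a value above 0 in both. Its acRIP-table Inputs were 1.92 and 5.22 FPKM, and after scaling to the median of protein-coding genes the Inputs used above were 3.47 and 3.18 times as high.

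UCA1 had the largest difference between the Inputs of the 9 lncRNAs. UCA1 (ENSG00000214049, GRCh38 chr19:15828947-15836321) was at 10.3 FPKM (347 reads) in the SW480-labelled Input and 0.999 (31 reads) in that labelled DLD-1, and at 1.79 (122 reads) and 10.3 (595 reads) in the 2 RIP libraries. The SW480-labelled Input and the DLD-1-labelled RIP library were high and the other pair low. Over the Input of the same label the RIP level was 0.173 times (0.140 to 0.214) under SW480 and 10.3 times (7.17 to 15.3) under DLD-1, with log2 ratios of -2.02 and 2.50. Over the opposite Input it was 1.79 times (1.20 to 2.75) and 0.995 times (0.870 to 1.14), the second interval including 1. The acRIP-table Inputs kept the order of the Inputs, at 9.29 and 0.402 FPKM.

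CRNDE, named for its raised level in colorectal neoplasia, was within 2-fold of Input in both RIP libraries with the RIP-table Inputs. CRNDE (ENSG00000245694, GRCh38 chr16:54918863-54928886) was at 4.58 FPKM (174 reads) and 5.24 (184 reads) in the SW480 and DLD-1 Inputs, and at 6.94 (535 reads) and 4.91 (322 reads) in the RIP libraries. The SW480-labelled RIP library was the highest of the 4. The RIP level was 1.52 times the Input under SW480 (1.28 to 1.81) and 0.938 times under DLD-1 (0.780 to 1.13), with log2 ratios of 0.51 and -0.08 (0.35 and 0.08 over the opposite Input). The Inputs stood at a ratio of 0.873 (0.706 to 1.08), so a difference between them was not detectable at this depth. Its acRIP-table Inputs were 2.07 and 1.53 FPKM, and after scaling the RIP-table Inputs were 1.51 and 2.25 times as high. With those Inputs the log2 ratios were 0.98 and 0.83, and 1.25 and 0.55 with the opposite one, so CRNDE was then above Input throughout.

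H19, the imprinted neighbour of IGF2, had few reads in every library. H19 (ENSG00000130600, GRCh38 chr11:1995176-2001266) was at 2.64 FPKM (91 reads) and 0.941 (30 reads) in the SW480 and DLD-1 Inputs, and at 0.314 (22 reads) and 1.40 (83 reads) in the RIP libraries. The SW480-labelled Input was the highest and the RIP library of the same label the lowest. The RIP level was 0.119 times the Input (0.0713 to 0.192) under SW480 and 1.48 times (0.966 to 2.33) under DLD-1, an interval that includes 1. The log2 ratios were -1.47 and 0.30, and -0.56 and -0.60 over the opposite Input. IGF2 had log2 ratios of -1.35 and 1.19, and 0.04 and -0.20 over the opposite Input.

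MIR17HG, the host transcript of the miR-17 cluster, was also low in every library. MIR17HG (ENSG00000215417, GRCh38 chr13:91347687-91354577) was at 3.70 FPKM (154 reads) and 2.73 (105 reads) in the SW480 and DLD-1 Inputs, and at 1.13 (95 reads) and 3.95 (283 reads) in the RIP libraries. The SW480-labelled RIP library was the lowest of the 4. Its RIP level was 0.304 times the Input (0.233 to 0.396) under SW480 and 1.44 times (1.15 to 1.82) under DLD-1, with log2 ratios of -1.14 and 0.41 (-0.81 and 0.07 over the opposite Input).

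The small RNAs that give H19 and MIR17HG their second role were not seen as rows of their own. The precursor rows MIR17, MIR18A, MIR19A, MIR20A, MIR19B1 and MIR92A1 inside MIR17HG and MIR675 inside H19 were listed at 0 in all libraries of both tables, and the labels name a kit for long RNA. The mature miRNAs that these transcripts encode are shown with the seed, bases 2 to 8, in capitals, as RefSeq on GRCh38.p14 gives them. miR-17-5p and miR-20a-5p share the seed AAAGUGC, miR-19a-3p and miR-19b-3p share GUGCAAA, and miR-18a-5p, miR-92a-3p and both arms of miR-675 each have a seed that no other in this set has.
hsa-miR-17-5p: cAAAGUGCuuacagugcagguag
hsa-miR-20a-5p: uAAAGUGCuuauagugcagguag
hsa-miR-18a-5p: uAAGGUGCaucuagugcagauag
hsa-miR-19a-3p: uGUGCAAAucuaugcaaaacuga
hsa-miR-19b-3p: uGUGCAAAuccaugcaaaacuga
hsa-miR-92a-3p: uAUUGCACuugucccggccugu
hsa-miR-675-5p: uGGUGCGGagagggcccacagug
hsa-miR-675-3p: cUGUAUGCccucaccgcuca

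Which lncRNAs were enriched or depleted in NAT10 RIP was asked over the 12324 genes that reached 1 FPKM in both Inputs, of which 7 were lncRNAs of this set. H19 and UCA1 did not pass because of the DLD-1-labelled Input, so these counts are not over all members. Under the label SW480 none of the 7 was at least 2-fold above Input, against 15.6% of genes tested, and 2 of 7 (MALAT1 and MIR17HG) were at least 2-fold below, against 16%. Under DLD-1 none was above, against 15.1%, and 3 of 7 (MALAT1, KCNQ1OT1 and PVT1) were below, against 19.2%. Among the 782 long non-coding genes tested the shares below Input were higher than over all genes, at 40.5% and 52.9%, and the shares above were 6.65% and 3.84%. MALAT1 was the 1 member below under both labels, against 7.29% of genes and 32.1% of long non-coding genes tested, and KCNQ1OT1 joined it when no FPKM was added, against 5.3%. On that scale 3 of 7 were below under SW480 (KCNQ1OT1 added), against 16.3%, and the same number under DLD-1, against 19.9%. With no filter on low values UCA1 and H19 added to those below under SW480 made 4 of 9, against 13.4%, with none above, against 14%. Under DLD-1 UCA1 was then above, against 12.2%, and 3 of 9 were below, against 18.7%. Over the opposite Input MALAT1 and KCNQ1OT1 were the members at least 2-fold below, in both RIP libraries, against 11.7% and 11.8% in each and, in both together, 8.41% of genes and 34.5% of long non-coding genes, and none was above, against 9.24% and 9.36%. The median log2 ratio of the 7 was -0.32 under SW480 (all genes 0.05, long non-coding genes -0.67) and -0.23 under DLD-1 (all genes -0.05, long non-coding genes -1.08). Against the opposite Input it was -0.64 (0.02 and -0.85) and 0.07 (-0.00 and -0.77).

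**Figure D2:**
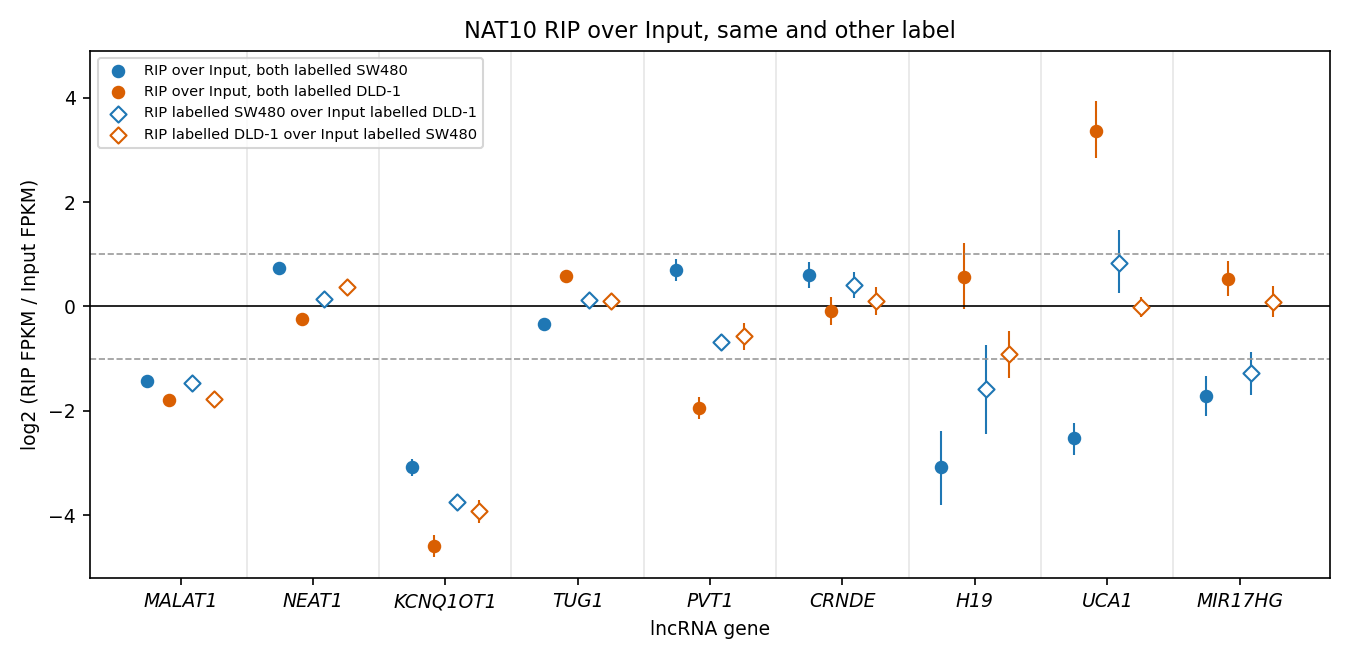
log2 ratio of NAT10 RIP FPKM over Input FPKM without added FPKM (y axis) for each of the 9 lncRNA genes (x axis), over the Input of the same label (filled circles) and of the other label (open diamonds), with blue for the SW480-labelled RIP library and orange for DLD-1. Vertical lines are 95% counting intervals, and dashed lines mark 2-fold. For MALAT1 and KCNQ1OT1 all 4 points lie below -1, whereas for UCA1 the filled points lie far apart, at a log2 ratio of -2.53 and 3.36, and the open points near each other.

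Which line had the higher level of a member was opposite in Inputs and RIP libraries. Between the Inputs, UCA1 was at least 2-fold higher under the label SW480, against 15.1% of the 17987 genes tested, and PVT1 at least 2-fold lower, against 20.9%. Between the RIP libraries, where 8 members were tested, PVT1 was higher under SW480, against 14.4% of 15143 genes, and UCA1 and MIR17HG were lower, against 9.6%. In all 9 members the library of SW480 was the higher in one assay and the lower in the other, against 74.8% of genes with reads to order and 90.9% of those whose Inputs differed at least 2-fold. The Input difference was within counting error for CRNDE and 0.978-fold for MALAT1. The sign of RIP over Input also differed between labels in 5 of the 7 members past the filter, against 43.6% of genes tested, and over the opposite Input in 1 of 7 (MIR17HG), against 18.3%. The DLD-1 ratio was within counting error for CRNDE in the first count (0.780 to 1.13) and for MIR17HG in the second (0.873 to 1.31). The acRIP-table Inputs kept the order of the lines for 7 of 9 members, the exceptions being MALAT1 and CRNDE, against 82.7% of genes.

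**Figure D3:**
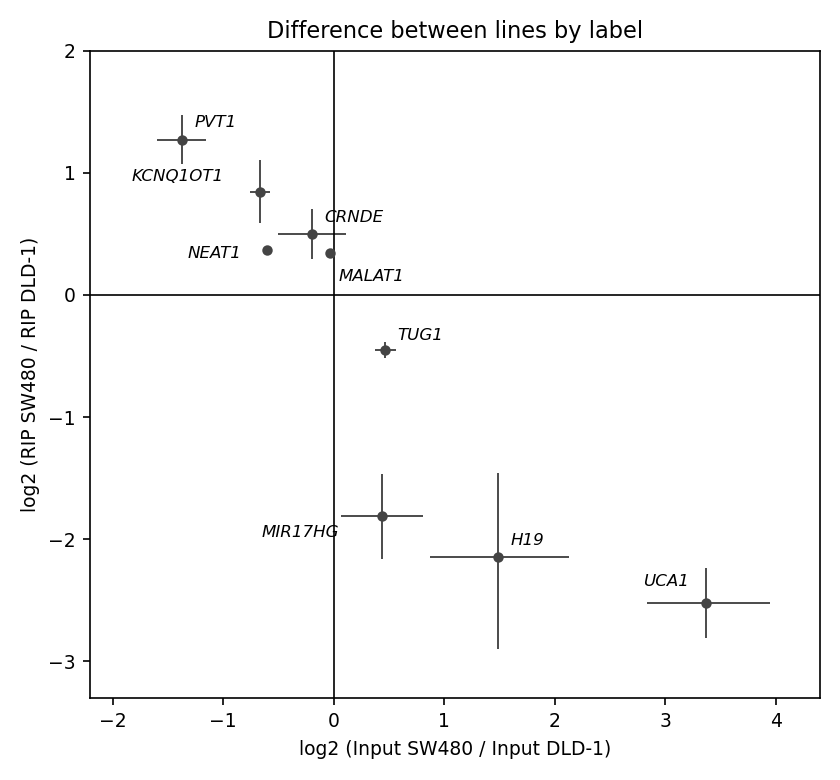
log2 ratio of the library labelled SW480 over that labelled DLD-1 between Inputs (x axis) and between NAT10 RIP libraries (y axis), without added FPKM, for the 9 lncRNA genes, with 95% counting intervals as lines. All 9 points lie in the upper left or lower right, from PVT1 at -1.37 and 1.27 to UCA1 at 3.37 and -2.52.

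The ac4C peak lists answer where on these RNAs acetylated fragments were enriched. A peak is a stretch with more acRIP than Input reads, and the authors' fold, p-value and FDR are printed as deposited. Peak lists are also named by label only, and whether an acRIP library matches the Input of its label was not tested. VIM hosted 1 peak under SW480 and 0 under DLD-1, at 0.0770 and 11.1 FPKM in the RIP-table Inputs of those labels. ZEB1, also mesenchymal, hosted none. Of the fibroblast markers COL1A1 hosted 6 peaks under SW480, and COL1A2 and DCN 1 each. They were at 0.244, 0.0114 and 0.0765 FPKM in the SW480-labelled Input, and no fibroblast marker hosted a peak under DLD-1. Of the immune markers CD68 hosted 1 peak, under DLD-1, at 0.0789 FPKM in the Input of that label. Among the epithelial markers, EPCAM and CDH1 each hosted 0 and 2 peaks, and KRT8 and KRT18 hosted peaks under both labels. A line named with a peak or fold below is therefore a label only. Of the 9 lncRNAs 5 hosted peaks in each line, and they were the same 5 (NEAT1, TUG1, PVT1, H19 and UCA1). Of all genes above 0 in the Input 29.1% hosted a peak in SW480 and 30.5% in DLD-1, and of long non-coding genes that reached 1 FPKM there, 7.27% and 5.52%. Both lines had a peak in 25.9% of the genes above 0 in both Inputs, and in 5 of the 9 members. The share was 4.09% of the 782 long non-coding genes at 1 FPKM or more in both, among them 3 of the 7 members (NEAT1, TUG1 and PVT1). There were 22 peaks on members in the list of SW480 and 16 in that of DLD-1, all annotated as exonic. By at least 1 base on the same strand, 14 of the 22 and 13 of the 16 overlapped a peak of the other line. Of these overlapping peaks 7 and 6 were on NEAT1, where some peaks of one list overlap one another. The share over all peaks was not counted, so whether members share more or fewer peaks than other genes is not known. The median fold of the members' peaks was 13.1 and 9.95, against 19.5 and 14.6 over all 9536 and 13964 peaks.

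MALAT1 hosted no peak in either line or in the list of both lines pooled, and neither did KCNQ1OT1, CRNDE or MIR17HG. At an Input FPKM of at least 100, 67.2% of genes in SW480 and 68.3% in DLD-1 hosted a peak, and 78% and 79.2% of the protein-coding genes. Among long non-coding genes with at least 10 FPKM, where MALAT1, NEAT1 and TUG1 belong in both lines, the shares were 23.5% and 20.8%.

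H19 carried the highest folds of the set. Its main peak lay in the 3′ part of the gene, at chr11:1995222-1996642 on the minus strand in SW480. It had 3 blocks of 1280 bases together, with a fold of 992 that ranked 65 of 9536 peaks. In DLD-1 it lay at chr11:1995252-1996612, in 3 blocks of 1220 bases, with a fold of 484 that ranked 58 of 13964. The DLD-1 bases were all within the SW480 peak. The main peaks held 15 and 14 sites of the 12-base ac4C motif CNNCNNCNNCNN, in which N is any base, as the authors counted them. That was 1.17 and 1.15 sites per 100 bases, against 0.513 and 0.464 over all peaks of the lists. The paper itself gives the motif in a shorter form, CXXCXXCXX, so these counts are of a longer pattern. All 14 sites of DLD-1 were among the 15 of SW480, and 9 of them lay between listed positions 1995737 and 1995904. H19 had 91 and 30 reads in the RIP-table Inputs, and the DLD-1-labelled Input of the acRIP table listed it at 0. Reads and FPKM implied a counted length of about 2490 bases for H19, on a gene span of 6091. All H19 peaks of a list together covered 57.4% of that length in SW480 and 49.0% in DLD-1, so they were not confined to a short stretch.

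A weaker H19 peak covered the miR-675 precursor. It lay at chr11:1996761-1996909 in SW480, with a fold of 9.37, a listed p of 0.0083 and a log10 FDR of -0.40, which is above an FDR of 0.05, and it held no motif site. It covered 71 of the 73 bases of the miR-675 hairpin (chr11:1996759-1996831) and the whole of both mature arms printed above, miR-675-5p at chr11:1996800-1996822 and miR-675-3p at chr11:1996768-1996787. The pooled list had a peak of fold 10.9 at chr11:1996731-1996939, which covered all 73 bases. DLD-1 had no peak there.

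UCA1 had 3 peaks in each line, each overlapping its counterpart. The first joined 2 exons, at 193 to 2348 bases from the gene start in SW480 (fold 17.3) and 133 to 2378 in DLD-1 (fold 66.1). The other two lay toward the 3′ end, with SW480 folds of 227 and 110 and DLD-1 folds of 78.7 and 88.1. The peaks covered 1317 and 1406 bases, or 54.3% and 58.0% of an implied counted length of about 2425 bases. Of the covered bases 1108 were shared. The peaks held 6 motif sites in each line, 4 of them shared. In SW480 they shared the locus with a peak of LINC01764 on the other strand. UCA1 had 347 and 31 reads in the RIP-table Inputs.

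NEAT1 had the most peaks, 12 in SW480 and 7 in DLD-1, some of which overlapped one another, so that they merged into 9 and 5 separate regions. The regions covered 2275 bases in SW480 (10.0% of the gene) and 1236 in DLD-1 (5.43%), with 883 bases shared. Most fell in 2 places. One was the first part of the RNA, up to 3596 bases from the start in SW480 and 3536 in DLD-1, a stretch that the short and long isoforms share. The other lay at 16719 to 17948 bases in SW480 and 17558 to 17828 in DLD-1, in the part that the paraspeckle-forming long isoform alone contains. 1 further SW480 peak lay at 7071 to 7191 bases. The highest fold was 52 in SW480, at 17528 to 17948 bases, where the DLD-1 peak had a fold of 5.43, and 34.5 in DLD-1, at 2277 to 2577 bases, where the SW480 peak had 13.8. Motif sites were sparser on NEAT1 peaks than over the lists, at 0.189 and 0.210 per 100 listed bases, and came to 3 and 2 distinct sites.

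TUG1 had 4 peaks in each line, 2 of which overlapped. SW480 folds ran from 2 to 14.6 and those of DLD-1 from 9.05 to 39.7, both highest folds belonging to overlapping peaks that ended 9562 bases from the start. They covered 661 and 1200 bases, with 301 shared, and held 0 motif sites in SW480 and 1 in DLD-1. The DLD-1 list had 2 more peaks within the gene, 1 on the same strand listed under TUG1_4 and 1 on the other strand listed under AC004542.1. PVT1 had 1 peak in each line at the 3′ end of the gene, 306460 to 306699 bases from the start in SW480 with a fold of 47.9, and 306520 to 306639 in DLD-1 with a fold of 10.2. These held 4 and 3 motif sites. Over the set, 9 of 22 and 10 of 16 peaks held a site, against 56.2% and 55.1% of all peaks.

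**Figure D4:**
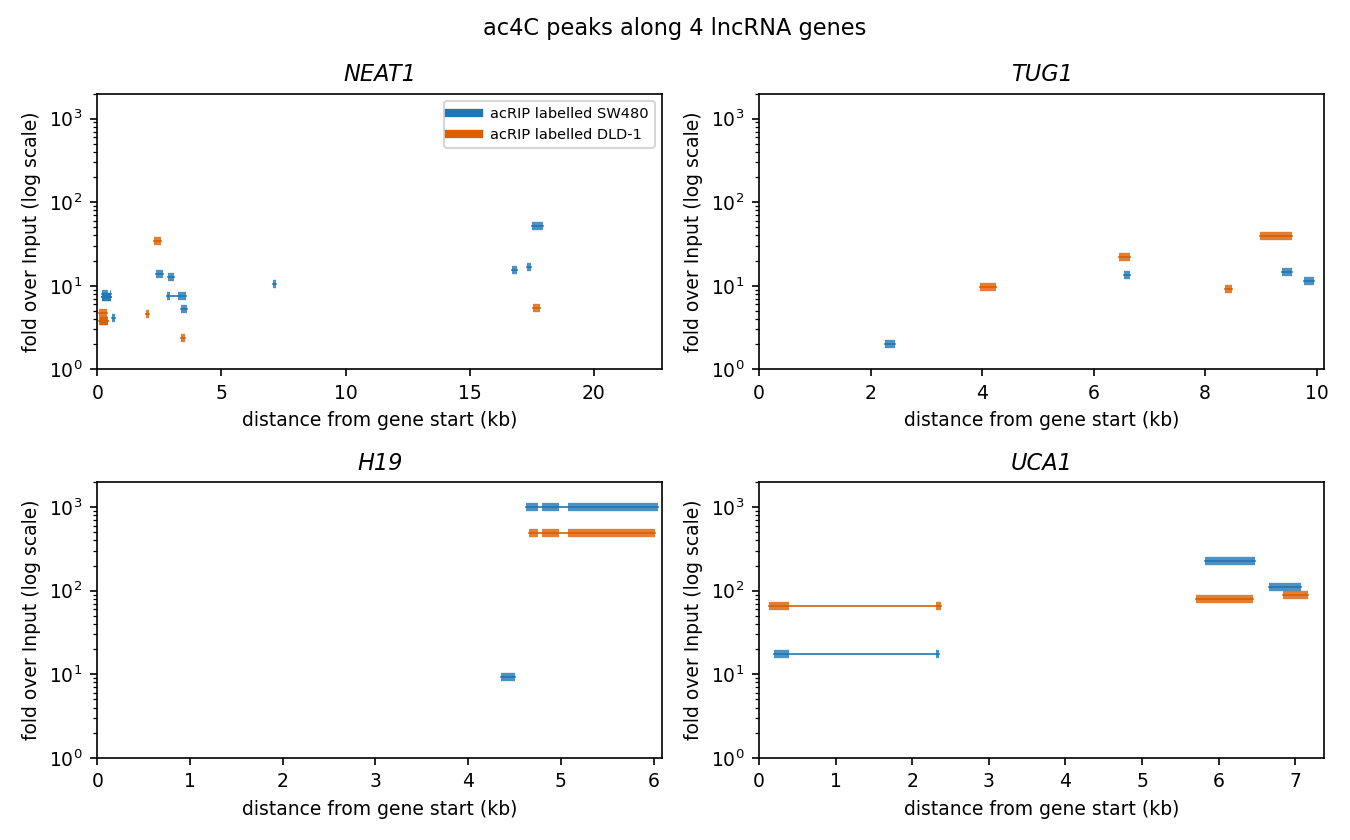
ac4C peaks along NEAT1, TUG1, H19 and UCA1, by distance from the gene start in kilobases (x axis, to the gene end) and the authors' fold over Input on a log scale (y axis), with blue for the SW480-labelled acRIP library and orange for DLD-1. Thick bars are the peak's blocks and thin lines join the blocks of one peak. H19 peaks reach a fold of 992 and 484 in the 3′ part of the gene. UCA1 peaks lie at matching places in both lines, and NEAT1 peaks lie near the start and at 16719 to 17948 bases.

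Gene lists around the members gave the setting. Over all genes tested 15.6% were at least 2-fold above Input and 16% below under SW480, and 15.1% and 19.2% under DLD-1. Among long non-coding genes tested 6.65% were above and 40.5% below under SW480, and 3.84% and 52.9% under DLD-1. Over the opposite Input the shares of all genes were 9.24% and 11.7% under SW480, and 9.36% and 11.8% under DLD-1. Of 14 genes for paraspeckle proteins, all past the filter, 0 were at least 2-fold above Input under SW480 and 2 below (TAF15 at -1.30 and CPSF6 at -1.20, log2), and 0 were above under DLD-1 and 1 below (HNRNPM at -1.10). NUDT21, a cleavage factor subunit, had the highest log2 ratio under both labels, at 0.69 and 0.83. Peaks were hosted by 13 and 14 of the 14, against 51.1% and 56.8% of protein-coding genes past the filter and the 78% and 79.2% given above for those at 100 FPKM or more. Over the opposite Input none of the 14 was past 2-fold under SW480, and HNRNPM was below under DLD-1 at -1.27. Of 25 other named lncRNAs 12 passed the filter. Under SW480 3 were above Input (CYTOR at 1.91, OIP5-AS1 at 1.23 and LINC00511, at 14.0 FPKM against 6.49 in the Input) and 0 below, with MIR210HG lowest at -0.91. Under DLD-1 0 were above, with NORAD, a cytoplasmic RNA, highest at 0.92, and 2 were below (MIR4435-2HG at -1.59 and PCAT6 at -1.38). With the opposite Input none was below, LINC00511 was above under SW480 at 1.02, and CYTOR and OIP5-AS1 were above under DLD-1 at 1.48 and 1.04. Of these 25, 6 hosted a peak in SW480 and 4 in DLD-1. The shares were 29.1% and 30.5% of genes above 0 in the Input, and 7.27% and 5.52% of long non-coding genes at 1 FPKM or more. The hosts in SW480 include TINCR and JPX, at 0 and 0.113 FPKM in the SW480-labelled Input. Of 9 genes beside the members 7 passed, with IGF2 and KCNQ1 below Input under SW480 and IGF2 above under DLD-1, as given with H19 and KCNQ1OT1. FRMD8, near NEAT1, was the highest of these under SW480 at 0.48 and the lowest under DLD-1 at -0.97, and over the opposite Input none of the 7 was past 2-fold. Of 12 miRNA genes listed for the members, RefSeq places 11 inside them and MIR1208 beyond the end of PVT1 by 48859 bases. Of the 12, 2 passed the filter, MIR1206 and MIR1207 inside PVT1, and both were below Input under both labels, on 17 and 9 reads in the SW480-labelled Input and 3 and 0 in its RIP library.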

How the data were processed

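RIP-seq, acRIP-seq and input RNA of SW480 and DLD-1 cells were sequenced as 1 library per group. The submitters' processing notes name cutadapt 2.5 and HISAT2 2.1.0 with human build GRCh38; the counting tool, annotation, strand setting and peak caller are not given in the sources used here. The authors deposited FPKM values per gene, and for acRIP peaks a p-value, the log10 FDR (handled as a score without a fixed range), a fold ratio over Input and motif counts. The acRIP table names no unit and was read as FPKM. The authors' ratio columns were not used. From the RIP table's FPKM, whole reads were recovered from the steps between low values (23515 of 23515 genes above 0 in at least 2 libraries), a step tested on simulated data. log2 ratios used a pseudocount of 1, an Input filter of 1 FPKM in both lines and a 2-fold threshold, with no test. Libraries compared with each other were filtered at 1 FPKM in either. Intervals are exact (Clopper-Pearson, scipy 1.17.1; Python 3.11.15, numpy 2.4.6, pandas 2.3.3). acRIP-table Inputs were scaled to the median of protein-coding genes before use in ratios. Peak starts are printed counted from 1, and 1418 FDR entries that hold spreadsheet errors were taken as below 0.05. Gene positions and miRNA sequences are from RefSeq. All members are named, and from each list the genes past 2-fold and the highest and lowest. The members, lists and alternatives were chosen with earlier results of these data known. Alternatives were another pseudocount, centring, filter, threshold, Input and peak selection.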

Additional observations from a re-analysis of the deposited data

Results flagged for a closer look

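For 7 of the 9 lncRNAs the RIP over Input value lay above 0 under one label and below 0 under the other, and with 1 library per group the difference was not tested. Past the Input filter it was 5 of 7, against 43.6% of the genes tested, since H19 and UCA1 did not pass. The difference in log2 ratio, SW480 minus DLD-1, was -4.52 for UCA1 (-2.02 and 2.50), 2.44 for PVT1 (0.64 and -1.80), -1.77 for H19 (-1.47 and 0.30), -1.55 for MIR17HG (-1.14 and 0.41), 0.95 for NEAT1 (0.72 and -0.23), -0.88 for TUG1 (-0.32 and 0.56) and 0.59 for CRNDE (0.51 and -0.08). Under DLD-1 the counting intervals of CRNDE (0.780 to 1.13 times the Input) and H19 (0.966 to 2.33) included 1, so their signs there are within counting error. Over the opposite Input 2 of the 9 (UCA1 and MIR17HG) had opposite signs, or 1 of 7 past the filter (MIR17HG), against 18.3%. Under DLD-1 these intervals also included 1, at 0.870 to 1.14 for UCA1 and 0.873 to 1.31 for MIR17HG. The 2 members without a difference in sign, MALAT1 and KCNQ1OT1, were below Input throughout.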

How the results depend on the processing

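No paired analysis was possible because each group had 1 library, and for the same reason no replicate could be left out. Of the counts over members, 59 alternative values kept within 1.5 times and 11 moved. A count that kept could still change in its members. With the Input of the other label, KCNQ1OT1 took the place of MIR17HG among the 2 below under SW480. PVT1 then dropped out under DLD-1, from 3 below to 2, as with both acRIP-table Inputs. H19 joined those lower under SW480 between RIP libraries, from 2 to 3, with a pseudocount of 0.1 and at 1.5-fold. Members at least 2-fold above Input under SW480 went from 0 to 1 with the acRIP-table Input of the same label (PVT1), to 1 with that of the other label (CRNDE) and to 2 at 1.5-fold (NEAT1 and PVT1). Those below went from 2 to 4 without a filter, which adds H19 and UCA1, and those above under DLD-1 from 0 to 1 (UCA1). Members higher in the Input labelled SW480 went from 1 to 2, H19 being added, with a pseudocount of 0.1, with none (an alternative chosen after seeing the data), at 1.5-fold and with the acRIP-table Inputs. Those lower went from 1 to 2 at 1.5-fold (NEAT1). Peaks on members in SW480 fell from 22 to 14 at p below the list's median. Of the members at least 2-fold from Input, filter set aside, the sign reversed in 6 values, for H19 under SW480 at 0.39 and PVT1 under DLD-1 at 0.98 (acRIP-table Input of the other label), and for UCA1 under SW480 at 0.48 and 0.79 and under DLD-1 at -0.01 and -0.37 (other label, RIP table and acRIP table). Of ratios within 2-fold, 12 further values changed sign. With the RIP-table Input of the other label these were TUG1 (0.12) and PVT1 (-0.64) under SW480 and NEAT1 (0.36), CRNDE (0.08) and H19 (-0.60) under DLD-1. With the opposite acRIP-table Input they were NEAT1 (-0.23) and TUG1 (0.03) under SW480 and TUG1 (-0.20), CRNDE (0.55), H19 (-0.95) and MIR17HG (-0.09) under DLD-1, and with that of the same label CRNDE (0.83) under DLD-1. Where the alternative's own construction does not show the cause, the cause was not tested. Over the 4 sets of Input values, which may not be independent, MALAT1 ran from -2.25 to -1.42 under SW480 and from -2.59 to -1.76 under DLD-1. Low reads limit H19, with 22 in the RIP library labelled SW480.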

Other observations

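The genes whose levels were most like a member's over the 4 RIP-table libraries and the 2 acRIP-table Inputs, by Euclidean distance of log2(FPKM + 1), were mostly protein-coding. FGFBP1 (distance 0.373) and SLC1A1 (0.622) lay nearest to UCA1, with FGFBP1 at 10.2 and 0.872 FPKM in the SW480 and DLD-1 Inputs and 2.04 and 13.0 in the RIP libraries. NIFK (0.343) and YAP1 (0.377) lay nearest to NEAT1, FAM208B (0.219) and ZRANB2 (0.231) to TUG1, PHLDB1 (0.358) and SRGAP2 (0.645) to PVT1, SLC9B2 (0.268) and DHRS7B (0.453) to CRNDE, and RNF223 (0.353) and GAB1 (0.381) to MIR17HG. KCNQ1OT1 lay nearest to the processed pseudogenes AC097658.1 (0.317) and ODCP (0.349), and H19 to ACTG1P20 (0.118) and RN7SL838P (0.346). MALAT1 had no close match, the nearest being the snoRNA gene SNORA73B at 1.04 and MT-ATP8 at 1.66.

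HOTTIP, an lncRNA of the HOXA cluster outside the set, had the same arrangement as UCA1, at 11.4 FPKM in the SW480-labelled Input, 10.1 in the DLD-1-labelled RIP library, 0.288 in the DLD-1-labelled Input and 0.262 in the SW480-labelled RIP library. It was named after its values were seen, and it hosted no peak.

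Some peaks of the highest fold, a group to which that of H19 belongs, lay on genes not seen in the Input. Of the 96 genes that hosted the 100 highest-fold peaks in SW480, 13 (13.5%) were listed at 0 in the Input of that label and 22 (22.9%) were below 1 FPKM, against 8.40% and 15.0% of all 6581 hosts. In DLD-1 it was 8 (8.42%) and 10 (10.5%) of 95 genes, against 7.71% and 12.5% of all 7099 hosts. Whether the lines differ in this was not tested.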
